A study of Homo sapiens with 5 samples.

Results

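Retinoic acid is the active derivative of vitamin A and a classical inducer of HOX genes, and the 10 genes described here are those through which a cell senses and handles it. They are the nuclear receptors RARA, RARB and RARG, the carriers CRABP1 and CRABP2, the enzymes ALDH1A1 and ALDH1A3, which make retinoic acid, DHRS3, which returns retinal to retinol, and CYP26A1 and CYP26B1, which degrade retinoic acid. They were chosen by name and not by a value, with earlier results of these data known, from 64837 gene entries in each library. The cells were NCI-H209, an established human small-cell lung cancer line of neuroendocrine character, and each library was made from rRNA-depleted RNA of the tumour cells. The 3 control libraries came from untreated NCI-H209 cells, and the 2 co-cultured libraries came from NCI-H209 cells kept for 24 h with human brain microvascular endothelial cells (HBMECs) across a porous Transwell membrane, in medium with serum. No retinoid was named among the agents added, and the labels do not say whether libraries of a group came from separate cultures, so that p-values measure only the spread between these libraries.

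Retinol taken up by a cell is oxidised to retinal by retinol dehydrogenases and then to retinoic acid by ALDH1A enzymes. CRABP2 carries retinoic acid to the nucleus, where RAR-RXR heterodimers sit on pairs of hexamers in target promoters and exchange corepressors for coactivators once the ligand is bound. RARB, CYP26A1, DHRS3, STRA6 and CRABP2 are textbook targets of the same receptors, so that the pathway reports on itself and limits its own ligand. HOX genes at the 3′ ends of the clusters, of the low paralog groups, answer retinoic acid earlier and more strongly than those at the 5′ ends.

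The best known of these response elements is the DR5, a direct repeat of hexamers with 5 bases between them. RefSeq promoter windows (GRCh38.p14, from 250 bases before to 50 after each start) were held for all 10 genes, 18 windows in all, and were searched on both strands for pairs of these hexamers in any combination, AGGTCA or AGTTCA or GGGTCA or GGTTCA. A DR5 lay in 2 of the 18 windows, 1 of RARB and 1 of CYP26A1, and no window held a DR2, the same repeat with 2 bases between. Over all 35116 windows, 0.0883% held a DR5 and 0.0399% a DR2, while 38.6% held a single hexamer. The 250 bases before the start are printed for these genes, because they carry the element, and for CRABP2, which had the largest change of the 10. Capitals mark the DR5, and the sequences read 5′ to 3′ on the strand of the gene, at chr3:25428013-25428262 (plus strand) for RARB, chr10:93073643-93073892 (plus strand) for CYP26A1 and chr1:156705785-156706034 (minus strand) for CRABP2.
RARB: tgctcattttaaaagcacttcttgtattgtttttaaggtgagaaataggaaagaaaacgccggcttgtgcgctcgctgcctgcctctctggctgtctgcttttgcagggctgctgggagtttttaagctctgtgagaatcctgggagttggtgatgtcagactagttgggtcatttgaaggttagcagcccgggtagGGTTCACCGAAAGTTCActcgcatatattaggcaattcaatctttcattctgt
CYP26A1: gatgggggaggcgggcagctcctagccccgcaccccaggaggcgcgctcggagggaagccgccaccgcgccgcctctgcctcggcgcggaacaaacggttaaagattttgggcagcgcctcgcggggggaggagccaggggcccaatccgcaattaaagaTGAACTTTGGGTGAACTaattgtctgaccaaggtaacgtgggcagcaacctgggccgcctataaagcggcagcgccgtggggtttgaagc
CRABP2: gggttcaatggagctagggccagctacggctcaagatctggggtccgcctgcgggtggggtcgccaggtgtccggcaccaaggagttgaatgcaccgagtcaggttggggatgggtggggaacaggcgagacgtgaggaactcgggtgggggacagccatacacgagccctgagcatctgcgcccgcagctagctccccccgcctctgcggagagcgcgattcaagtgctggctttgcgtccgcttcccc
The RARB repeat lay on the strand of the gene, 53 to 37 bases before the start. The CYP26A1 repeat lay on the opposite strand, 90 to 74 bases before the start, where it reads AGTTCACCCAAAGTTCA. The CRABP2 window held no DR5, which says only that these letters are not in this window.

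The libraries held 17317045 to 19157348 counts on the expected strand in control and 15457071 and 18918787 in the co-cultured group, so that 3 counts corresponded to 0.154 to 0.198 CPM, the unit of counts scaled to library size. Of all reads, 8.13% to 8.48% were unmapped in control and 16.8% and 15.9% in the co-cultured libraries 1 and 2, a difference that moves with the groups and whose part in the results was not tested. The neuroendocrine markers INSM1, NCAM1, SYP and CHGB were present in all 5 libraries. CHGA had at most 1 count, in a stretch of genes of which 7 of the 12 nearest protein-coding neighbours also had at most 3 counts. Of 21 endothelial markers, 8 had at most 3 counts in every library, among them MMRN1 and PLVAP at 0, and their summed level was 19.9 to 35.5 CPM in control and 37.8 and 43.7 CPM in the co-cultured libraries. Of the 10 that were tested, ESAM, ANGPT2 and ICAM2 were higher (30.0%, against 18.4% of all genes tested and 24.5% of those with a promoter window) and none was lower. The fitted log2 fold change was positive for 6 and negative for TEK (-1.85), KDR (-1.30), ERG (-0.27) and VWF (-0.09). TEK had 31, 24 and 0 counts across the controls and KDR 37, 27 and 2. In control 1 and 2 the opposite strand held nearly as many, 25 and 23 at TEK and 24 and 20 at KDR. ANGPT2 alone had 7.44, 2.21 and 1.64 CPM across the controls and 13.9 and 19.0 CPM in the co-cultured libraries. PECAM1 and CDH5 reached at most 18 and 11 counts. The part of endothelial RNA in the results was not tested.

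Of the 10 genes, 7 had enough counts to be tested, and 2 of these, CRABP2 and RARG, were higher in the co-cultured group at an adjusted p under 0.05 (edgeR's quasi-likelihood test, Benjamini-Hochberg adjustment over 20360 genes). None was lower. Among all genes tested 33.4% were called, 18.4% as higher and 15.0% as lower, and with upper-quartile scaling the balance turned, with 15.1% higher and 19.3% lower. Thus 2 of 7 (28.6%) is close to the background of 33.4% and no result about the group. All 7 fitted log2 fold changes were positive, with a median of 0.70 against -0.03 over all genes tested. The groups did not overlap for 5 of the 7, and among all genes tested they did not overlap for 59.4% of genes. Both called genes also passed a criterion of more than 1 on the log2 scale in either direction and p under 0.05 before adjustment, which is the reading used here of the fold change and p named in the study's methods and which 10.5% of all genes passed and 5.44% passed as higher. Leaving out control 1 raised the count to 6 of 7, all higher, in a fit that called 49.5% of all genes and 26.5% as higher. Leaving out control 3 lowered it to CRABP2 alone, in a fit that called 25.9% of all genes. Leaving out a co-cultured library leaves 1 in that group. The log2 fold change of CRABP2 was then 2.31 without co-cultured 1 and 2.49 without co-cultured 2, and that of RARG was 0.76 and 1.45. In bulk RNA, more cells that express a gene and more RNA of it per cell cannot be told apart.

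**Figure D1:**
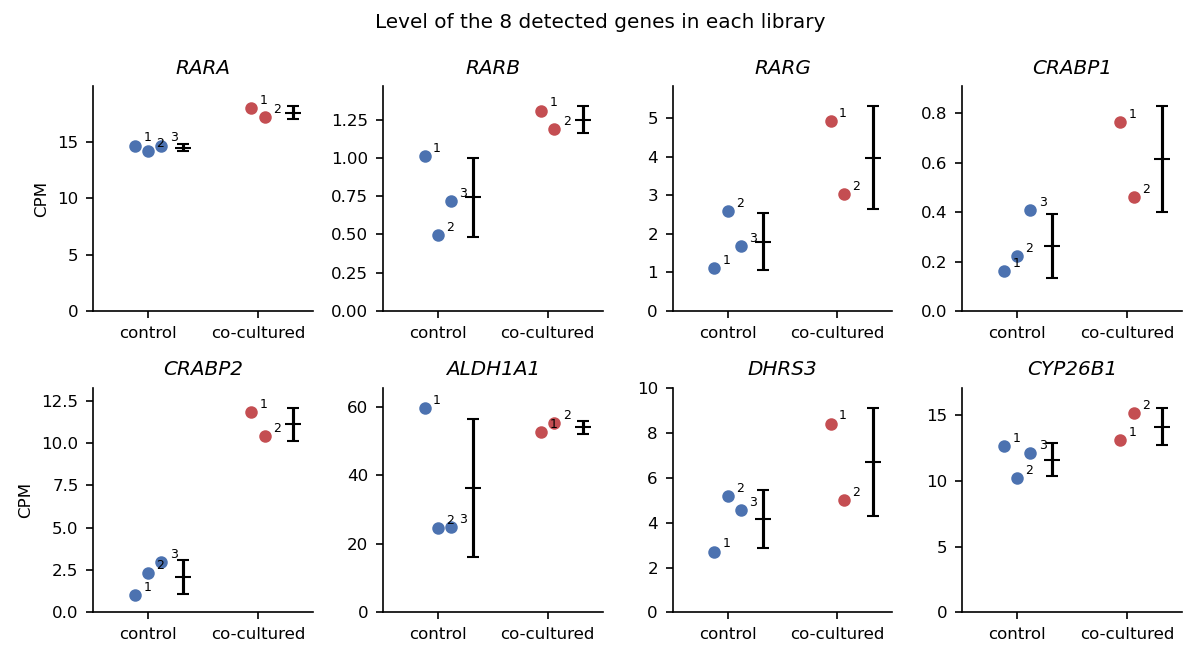
The level of each of the 8 detected genes in CPM (linear axis from 0, own scale per panel) is plotted for the 3 control libraries (blue) and the 2 co-cultured libraries (red), with the replicate number beside each point and the mean ± SD as a black bar. CRABP2 lay at 1.01 to 2.97 CPM in control and at 10.4 and 11.8 CPM after co-culture, while control 1 of ALDH1A1 lay above both co-cultured libraries.

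RARA, on chromosome 17 at 40309192 to 40357643 (GRCh38, plus strand, ENSG00000131759.17), is the most widely expressed of the receptors. It had 277, 256 and 287 counts in control 1, 2 and 3 and 329 and 260 in co-cultured 1 and 2, which corresponds to 14.7, 14.2 and 14.7 CPM and to 18.0 and 17.2 CPM. In CPM both co-cultured libraries lay above all controls, and the step was small, but in counts control 1 and control 3 lay above co-cultured 2. The means were 14.5 ± 0.322 CPM (SD, n = 3) and 17.6 ± 0.571 CPM (SD, n = 2), a step of 0.28 on the log2 scale (SE 0.11) that did not pass the test by edgeR (adjusted p = 0.0836). It passed by edgeR without control 1 (0.29, adjusted p = 0.0365) and with the counts made without regard to strand (0.35, adjusted p = 0.0468). Those counts are not the 2 strands added up. They were 220, 212 and 229 in control and 269 and 214 after co-culture, lower than on the expected strand alone. RARA overlaps the antisense gene RARA-AS1, and strand was used in the counting here.

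RARB, on chromosome 3 at 25174332 to 25597932 (plus strand, ENSG00000077092.18), is the receptor that retinoic acid itself induces through the DR5 printed above. It was near the limit of detection, with 19, 9 and 14 counts across the controls and 24 and 18 in the co-cultured libraries. These are 1.01, 0.498 and 0.717 CPM against 1.31 and 1.19 CPM. The groups did not overlap in CPM, but in counts control 1 lay above co-cultured 2. The log2 fold change was 0.75 (SE 0.38) and did not pass the test by edgeR (adjusted p = 0.163), and without control 1 it was 1.03 (adjusted p = 0.0406). The opposite strand of the locus held more counts, 26 to 46 per library, and there RARB overlaps TOP2B, which had 1564 to 3408 counts.

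RARG, on chromosome 12 at 53210567 to 53232980 (minus strand, ENSG00000172819.16), is the receptor best known from epithelia and skin. Its counts were 21, 47 and 33 across the controls and 90 and 46 in the co-cultured libraries, or 1.12, 2.6 and 1.69 CPM and 4.92 and 3.04 CPM. The groups did not overlap in CPM, where control 2 and co-cultured 2 lay near each other, but in counts control 2 lay above co-cultured 2. RARG rose 2.23-fold, from 1.80 ± 0.747 CPM (SD, n = 3) in control to 3.98 ± 1.33 CPM (SD, n = 2), a step of 1.16 on the log2 scale (SE 0.35, adjusted p = 0.0319 by edgeR). The call was lost without control 3 (1.11, adjusted p = 0.0796), without co-cultured 1 (0.76, adjusted p = 0.309), without co-cultured 2 (1.45, adjusted p = 0.0526) and after subtracting the counts of the opposite strand (1.20, adjusted p = 0.0521).

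Per kilobase of exon, the measure that allows levels of different genes to be set side by side, RARA made up 82.3% to 86.4% of the 3 receptors in control and 74.3% and 79.9% in co-cultured 1 and 2. RARG made up 6.04%, 14.0% and 9.08% in control and 18.8% and 13% after co-culture, and the groups overlapped. The share of RARB was 3.70% to 7.58% in control and 6.94% and 7.08% after co-culture. RARA was thus the main receptor mRNA in every library.

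**Figure D2:**
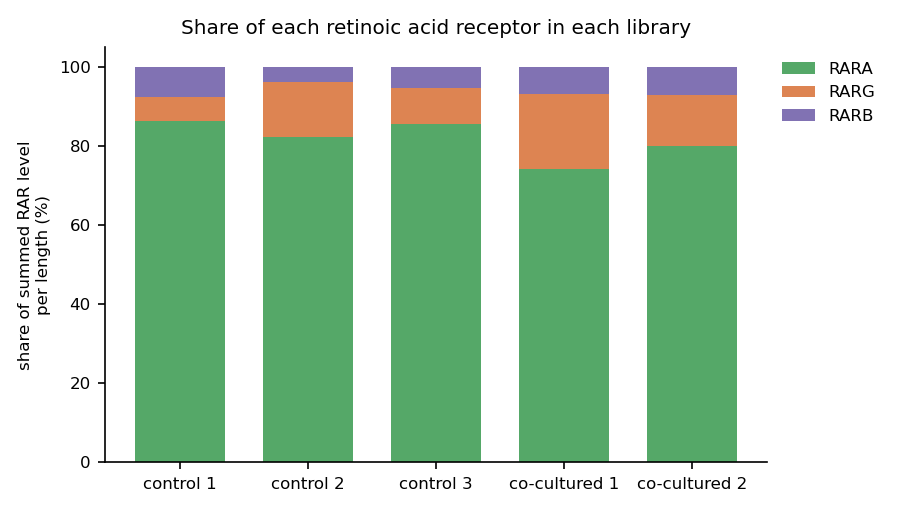
Stacked bars show the share (percent, axis from 0) of RARA, RARB and RARG in the summed CPM per kilobase of exon of the 3 receptors, 1 bar for each control and co-cultured library. RARA takes 82.3% to 86.4% of each control bar and 74.3% and 79.9% of the co-cultured bars.

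The clearest rise of the 10 genes was that of CRABP2, the carrier that hands retinoic acid to RARs. CRABP2 lies on chromosome 1 at 156699606 to 156705816 (minus strand, ENSG00000143320.8), and its promoter is printed above. It had 19, 42 and 58 counts across the controls and 216 and 158 in the co-cultured libraries, or 1.01, 2.32 and 2.97 CPM and 11.8 and 10.4 CPM. Every co-cultured library was thus far above every control, and the controls differed among themselves, with control 1 the lowest. CRABP2 rose 5.28-fold, from 2.10 ± 0.998 CPM (SD, n = 3) in control to 11.1 ± 0.968 CPM (SD, n = 2), a step of 2.40 on the log2 scale (SE 0.32, adjusted p = 6.29e-04 by edgeR). It was called under all 14 alternatives tried, with log2 fold changes of 2.07 to 2.78 and adjusted p from 1.78e-26 to 0.0154.

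CRABP1, the carrier better known for steering retinoic acid to its breakdown, lies on chromosome 15 at 78340324 to 78348230 (plus strand, ENSG00000166426.7). It had 3, 4 and 8 counts across the controls and 14 and 7 in the co-cultured libraries and stayed under the filter. The groups overlapped in counts but not in CPM, where control 3 stood at 0.410 and co-cultured 2 at 0.462. With the filter lowered to 1 count in any library, its log2 fold change was 1.21 (SE 0.60, adjusted p = 0.167 by edgeR). CRABP2 made up 85.1% to 90.5% of the carrier mRNA per length in control and 93.3% and 95.3% after co-culture.

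ALDH1A1, an enzyme that makes retinoic acid from retinal and a common marker of tumour cells with stem-like features, was the most abundant of the 10 per length. It lies on chromosome 9 at 72900662 to 73080442 (minus strand, ENSG00000165092.12). It had 1123, 444 and 488 counts across the controls and 964 and 839 in the co-cultured libraries, or 59.7, 24.6 and 25 CPM and 52.7 and 55.4 CPM. Control 1 was above both co-cultured libraries, and control 2 and 3 were well below them. The means of 36.4 ± 20.2 CPM (SD, n = 3) and 54.1 ± 1.93 CPM (SD, n = 2) gave a log2 fold change of 0.57 (SE 0.33) that did not pass the test by edgeR (adjusted p = 0.210). Without control 1 it was 1.13 (adjusted p = 1.31e-08), so that this single library sets the result. It also passed with a minimum of 1 count in any library (adjusted p = 5.73e-06 by edgeR), at the same log2 fold change of 0.57. That p changed with the set of genes fitted and not with the counts of ALDH1A1, and control 1 still lay above both co-cultured libraries. Control 1 was also the lowest library for RARG, CRABP2 and DHRS3.

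ALDH1A3, on chromosome 15 at 100877714 to 100916626 (plus strand, ENSG00000184254.16), had 0 counts in 4 libraries and 1 count in co-cultured 2. Of its 12 nearest protein-coding neighbours, 11 had over 100 counts summed over the libraries, among them ASB7 with 2923 and CHSY1 with 4483, so that reads of the region were counted. ALDH1A1 took 98.4% to 99.2% of the mRNA of the ALDH1A enzymes per length.

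DHRS3 reduces retinal to retinol and so draws substrate away from retinoic acid. It lies on chromosome 1 at 12567910 to 12617731 (minus strand, ENSG00000162496.8). It had 51, 94 and 89 counts across the controls and 154 and 76 in the co-cultured libraries, or 2.71, 5.20 and 4.56 CPM and 8.42 and 5.02 CPM. Co-cultured 1 stood above all, and co-cultured 2 lay among the controls. The log2 fold change of 0.70 (SE 0.30) did not pass the test by edgeR (adjusted p = 0.100). It was 0.28 without co-cultured 1 and 1.02 without co-cultured 2. With a minimum of 1 count in any library it passed (0.71, adjusted p = 0.00651 by edgeR). That p changed with the set of genes fitted and not with the counts of DHRS3, and co-cultured 2 still lay among the controls.

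CYP26B1, the hydroxylase that clears retinoic acid in many tissues, lies on chromosome 2 at 72129238 to 72148038 (minus strand, ENSG00000003137.8). It had 237, 185 and 236 counts across the controls and 240 and 229 in the co-cultured libraries, or 12.6, 10.2 and 12.1 CPM and 13.1 and 15.1 CPM. The groups touched without overlapping. The log2 fold change of 0.28 (SE 0.14) did not pass the test by edgeR (adjusted p = 0.165), and it passed without control 1 (0.34, adjusted p = 0.0448).

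CYP26A1, the related hydroxylase that retinoic acid induces most strongly in many cell types, carries the other DR5. It lies on chromosome 10 at 93073475 to 93077890 (plus strand, ENSG00000095596.11) and had 1 count in control 2 and 0 in the other 4 libraries. Of its 12 nearest protein-coding neighbours, 10 had over 100 summed counts, EXOC6 with 4011 and MYOF with 2286 among them. Both co-cultured libraries were at 0, which allows up to 3 counts, or at most 0.198 CPM, so that no level above that was seen after co-culture. The windows with a DR5 belonged to 9 genes that were tested, of which 3 were called (33.3%), 1 of them as higher. Of the 11472 genes tested that had a window, 40.4% were called.

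Ordered by CPM per kilobase of exon, the control level fell from ALDH1A1 (12.8) over RARA (3.07), CYP26B1 (2.32), CRABP2 (1.91), DHRS3 (1.37), RARG (0.351) and CRABP1 (0.265) to RARB (0.201). After co-culture the order was ALDH1A1 (19.0), CRABP2 (10.1), RARA (3.72), CYP26B1 (2.82), DHRS3 (2.21), RARG (0.776), CRABP1 (0.618) and RARB (0.338). CRABP2 thus moved from rank 4 to rank 2, and the rest kept their order. In control, the libraries of CRABP2 overlapped those of its neighbours CYP26B1 and DHRS3, and those of CRABP1 overlapped those of RARG and RARB. After co-culture, CYP26B1 and DHRS3 overlapped, as did RARG and CRABP1. With the longest transcript as the length, DHRS3 changed places with CRABP2 in control and with CYP26B1 after co-culture.

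**Figure D3:**
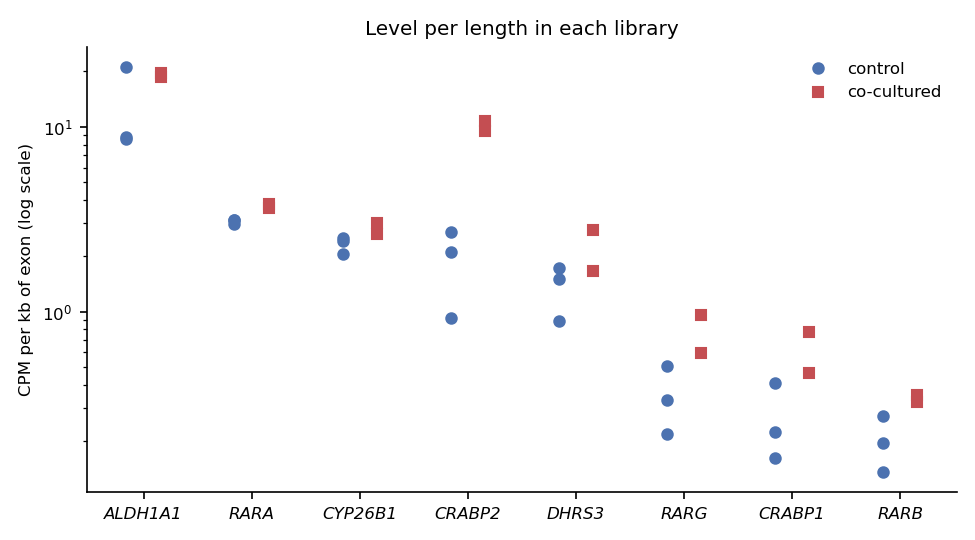
The level of each of the 8 detected genes is plotted in CPM per kilobase of exon (log axis), with 1 point per library, blue for control and red for co-cultured. ALDH1A1 is highest in both groups, and CRABP2 moves from 1.91 to 10.1 on average, past CYP26B1 and RARA.

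The rest of the retinoid pathway was taken as 4 lists of 51 genes in all, also chosen with earlier results of these data known. Of these, 29 were tested, 10 were higher (34.5%), 2 were lower and 17 did not pass the test (41.4% called, against 33.4% of all genes and 18.4% higher), with a median log2 fold change of 0.23. Among the 11472 tested genes that had a promoter window, 40.4% were called and 24.5% were higher, with a median of 0.05. The 41.4% is thus close to this background and no result about these genes. The same 2 shares stand beside each list below. A further 18 genes of the 4 lists had at most 3 counts in every library, 9 of them 0. RXRB, DGAT1 and RDH13, named after their values were seen, are among the 18, but 10, 7 and 7 of their 12 nearest protein-coding neighbours also had at most 3 counts, so nothing is drawn from their values.

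Of 11 partners and cofactors of the receptors, 9 were tested, 3 were higher (33.3%, against 18.4% of all genes) and 2 lower, and their median on the log2 scale was 0.14. RXRA, the heterodimer partner of the RARs, had 10.5, 15.3 and 14.8 CPM in control and 9.02 and 7.46 CPM in the co-cultured libraries. It fell by 0.71 on the log2 scale (SE 0.19, adjusted p = 0.0189 by edgeR), opposite to RARG. The fall did not pass when control 2, control 3, co-cultured 1 or co-cultured 2 was left out (adjusted p = 0.0662, 0.0626, 0.0759 and 0.162). The coactivators NCOA1 and NCOA3 rose by log2 fold changes of 0.56 and 0.49 (adjusted p = 0.00110 and 0.00133 by edgeR). The coactivator NCOA2, named after its values were seen, did not pass the test (-0.04, adjusted p = 0.702 by edgeR). NR2C1, an orphan receptor that binds such repeats, fell by 0.36 on the log2 scale (adjusted p = 0.0170 by edgeR). The call of NR2C1 was lost in 5 of the 14 alternatives. RXRG had 8, 3 and 7 counts across the controls and 12 and 5 after co-culture and was not tested. RXRB is listed at 0 or 1 count in every library, in a stretch where RING1 and VPS52 are also at 0. Leaving out control 1 raised the number called in this list to 6, in a fit that called 49.5% of all genes. Leaving out co-cultured 1 or co-cultured 2 lowered it to 2, in fits that called 12.8% and 14.2%.

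Of 16 genes of retinoid uptake, storage and carriage, 8 were tested and 2 were higher (25%, against 18.4% of all genes), with a median of 0.15 on the log2 scale. STRA6, the membrane receptor through which cells take up retinol, had 69.7, 80.9 and 83.1 CPM in control and 128 and 113 CPM in the co-cultured libraries. The groups were well apart, and STRA6 rose by a log2 fold change of 0.63 (SE 0.10, adjusted p = 0.00150 by edgeR) and was called in all 14 alternatives. Leaving out control 3, co-cultured 1 or co-cultured 2 left 1 gene called in this list, in fits that called 25.9%, 12.8% and 14.2% of all genes. Leaving out control 2 gave 3 called, against 25.3% of all genes. FABP5, a carrier that can hand retinoic acid to another class of receptor, is listed at 0 or 1 count in every library. Of its 12 nearest protein-coding neighbours, 5 had at most 3 summed counts and 6 had over 100, and nothing is drawn from its value.

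Of 19 retinol and retinal oxidoreductases, 9 were tested and 4 were higher (44.4%, against 18.4% of all genes), with a median log2 fold change of 0.59. RDH11, a retinal reductase of the endoplasmic reticulum, had 59.2, 60.0 and 56.3 CPM in control and 100 and 94.0 CPM in the co-cultured libraries. It rose by a log2 fold change of 0.73 (adjusted p = 2.10e-04 by edgeR) and was called in all 14 alternatives. SDR16C5, a retinol dehydrogenase, had 9.30, 5.75 and 5.94 CPM in control and 16.2 and 17.0 CPM after co-culture, a rise of 1.24 on the log2 scale (SE 0.20, adjusted p = 0.00180 by edgeR) that was also called in all 14. RDH10, the main retinol dehydrogenase of the embryo, rose by a log2 fold change of 0.59 (SE 0.14, adjusted p = 0.0120 by edgeR), which was lost without co-cultured 2 (0.40, adjusted p = 0.154). RDH12 had 2, 3 and 1 counts across the controls and 11 and 9 after co-culture (adjusted p = 0.0132 by edgeR), and no fold is given because its controls were at or under 3 counts. It was called in 7 of the 11 alternatives that tested it, and not with DESeq2 (adjusted p = 0.0608), with the replicate block (adjusted p = 0.0679), without co-cultured 1 (adjusted p = 0.117) or without co-cultured 2 (adjusted p = 0.0961). In this list 7 genes were called without control 1 and 2 without co-cultured 2, where 49.5% and 14.2% of all genes were called.

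Of the other 5 genes of retinoic acid synthesis and breakdown, 3 were tested and 1 was higher (33.3%, against 18.4% of all genes), with a median log2 fold change of -0.08. ALDH1A2, which makes retinoic acid in the embryo, had 28, 14 and 21 counts across the controls and 37 and 41 in the co-cultured libraries. It rose by a log2 fold change of 1.07 (SE 0.33, adjusted p = 0.0335 by edgeR), and the call was lost when any library but control 1 was left out (adjusted p = 0.0941 without control 2, 0.0772 without control 3, 0.0868 without co-cultured 1 and 0.228 without co-cultured 2), which leaves 0 genes called in this list. CYP26C1, the last of the retinoic acid hydroxylases, had 5, 11 and 8 counts across the controls and 4 and 7 after co-culture and was not tested.

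**Figure D4:**
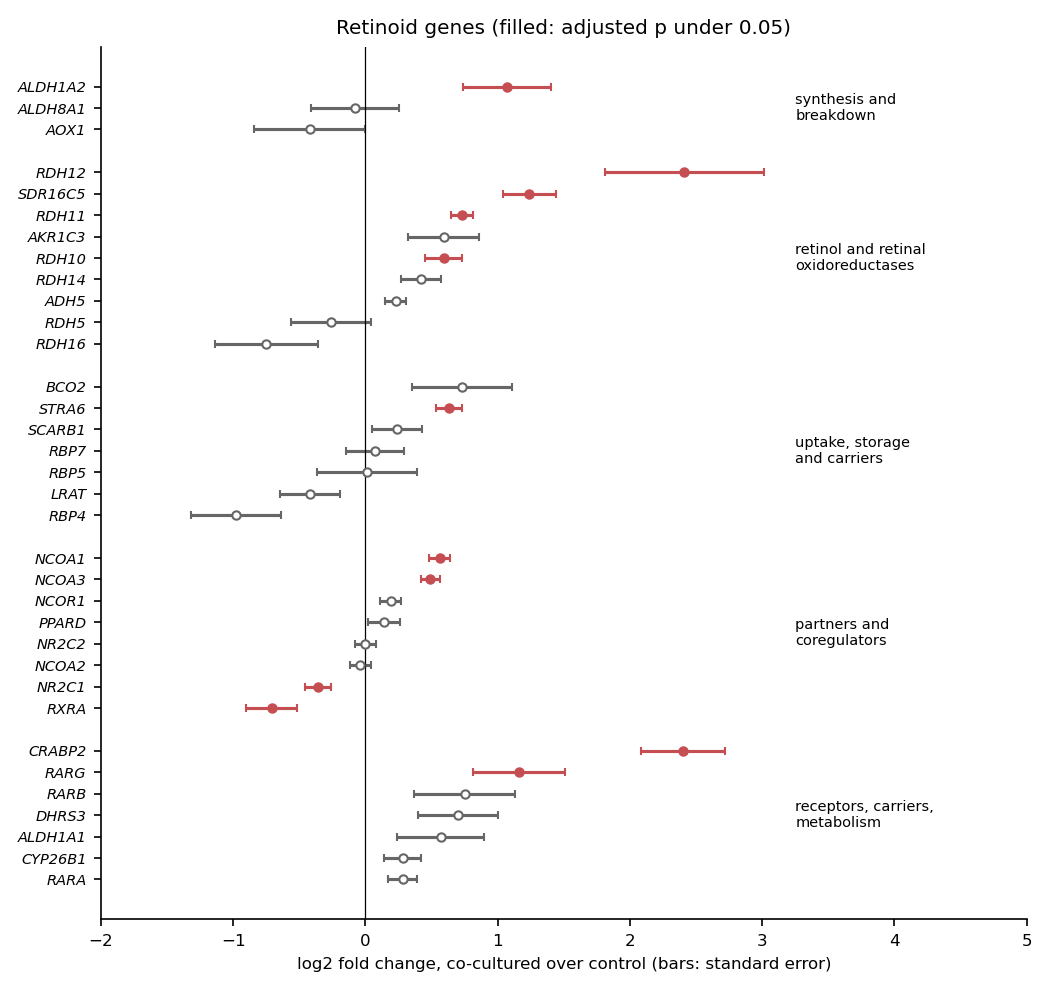
Log2 fold changes of co-cultured over control with their SE are plotted for the tested receptors, carriers and enzymes and for tested genes of the 4 lists of other retinoid genes. Filled points passed an adjusted p of 0.05 by edgeR, with RXRA lowest at -0.71 and CRABP2 at 2.40. The filled point of RDH12 lies at nearly the same value as that of CRABP2. It is no measure of the size of the change, because the controls of RDH12 had at most 3 counts.

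Genes known to be induced by retinoic acid were taken as a list of 32, of which 24 were tested. Of these, 10 were higher (41.7%, against 18.4% of all genes), 1 was lower and 13 did not pass the test, with a median log2 fold change of 0.53 against -0.03 over all genes. Among the tested genes that had a promoter window, 24.5% were higher, and their median was 0.05. Because the list was chosen with earlier results of these data known, its share and median are a description and no independent evidence. The groups did not overlap for 15 of the 24, as for 59.4% of all genes, and the number called ran from 9 to 14 over the alternatives. IRF1, a transcription factor that interferon also induces, rose from 29.7 ± 3.11 CPM (SD, n = 3) in control to 68.0 ± 2.97 CPM (SD, n = 2), a step of 1.20 on the log2 scale (adjusted p = 8.12e-05 by edgeR). RAI14, named for its induction by retinoic acid, rose by a log2 fold change of 0.99 (adjusted p = 1.10e-04 by edgeR). NAV2, a neuronal navigator gene first described as retinoic acid-inducible, rose from 54.0 ± 10.9 CPM (SD, n = 3) in control to 159 ± 24.4 CPM (SD, n = 2), a step of 1.55 on the log2 scale (adjusted p = 1.58e-04 by edgeR). IGFBP3, a binding protein of insulin-like growth factors, rose from 8.40 ± 0.581 CPM (SD, n = 3) in control to 25.5 ± 6.41 CPM (SD, n = 2), a step of 1.60 on the log2 scale (adjusted p = 1.87e-04 by edgeR). RAI2, BHLHE40, MEIS1, ICAM1, TNFAIP2 and FOXA1, named here after their values were seen, were also higher, and several of these genes are known to answer signals other than retinoic acid, such as interferon, NF-kB or low oxygen.

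TGFB2 was the 1 gene of this list that was lower. It fell by 1.43 on the log2 scale, from 4.59 ± 1.14 CPM (SD, n = 3) in control to 1.68 ± 0.325 CPM (SD, n = 2) (adjusted p = 0.00486 by edgeR), and the call was lost without co-cultured 2 (-1.26, adjusted p = 0.0601). RET, a receptor kinase of neuroendocrine cells named after its values were seen, had 71, 32 and 4 counts across the controls and 4 and 3 after co-culture. The opposite strand held 73, 56 and 4 counts across the controls, no fewer than the expected strand, and 1 and 4 after co-culture. Control 3 lay with the co-cultured libraries, and RET did not pass the test by edgeR (adjusted p = 0.0520). At the other end, RARRES2, STRA8, NR2F1, CDX1 and CEBPE, named after their values were seen, had 0 counts in every library.

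Among HOX genes of paralog groups 1 to 5, the early responders to retinoic acid, 12 of 15 were tested, 1 was higher and 1 lower (16.7% called, against 33.4% of all genes), and the median log2 fold change was 0.19. HOXD3 rose by a log2 fold change of 0.56 (adjusted p = 0.00671 by edgeR), lost without co-cultured 2 (adjusted p = 0.0789). HOXA2 had 14, 14 and 23 counts across the controls and 6 and 5 after co-culture and fell by 1.43 on the log2 scale (adjusted p = 0.0408 by edgeR), a call lost in 7 of the 13 alternatives that tested it. The number called was 4 without control 1, 0 without co-cultured 2 and 1 without any other library, and 49.5% and 14.2% of all genes were called without control 1 and without co-cultured 2.

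Among HOX genes of paralog groups 6 to 13, 16 of 24 were tested, 2 were higher and 3 lower (31.2% called, against 33.4% of all genes), and the median log2 fold change was -0.14. HOXB9, the gene the study follows, had 266, 250 and 306 counts across the controls and 1073 and 865 in the co-cultured ones, a rise of 1.99 on the log2 scale (SE 0.10, adjusted p = 1.26e-05 by edgeR). HOXD8 rose by a log2 fold change of 0.57, while HOXD9, HOXD10 and HOXB8 fell by 0.72, 0.45 and 0.35 on the log2 scale (adjusted p = 0.00612, 0.00858 and 0.0375 by edgeR). HOXD9 was called in 13 of the 14 alternatives (lost without co-cultured 2, adjusted p = 0.0852), and HOXD10 in 12 (lost without co-cultured 1, adjusted p = 0.0819, and without co-cultured 2, adjusted p = 0.0961). HOXB8 was called in only 6, with adjusted p up to 0.231, and among single libraries it kept the call only when control 1 was left out. The number called was 9 without control 1, 3 without co-cultured 1 and 2 without co-cultured 2, where 49.5%, 12.8% and 14.2% of all genes were called.

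**Figure D5:**
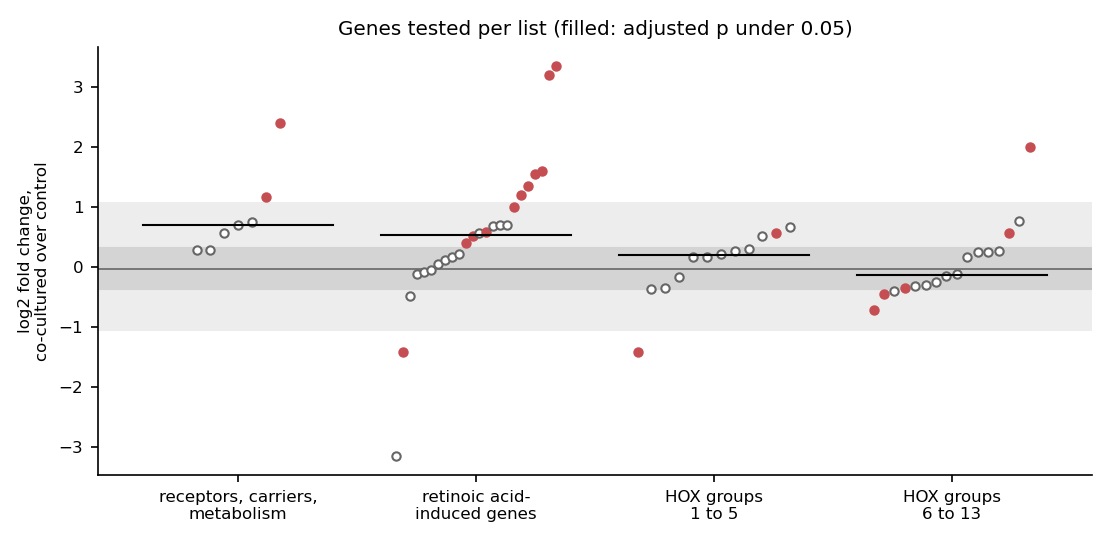
Log2 fold changes of co-cultured over control are plotted for the tested genes of 4 groups, the retinoic acid receptors, carriers and enzymes, the retinoic acid-induced genes, HOX paralog groups 1 to 5 and HOX paralog groups 6 to 13, with filled points for an adjusted p under 0.05 by edgeR, black bars for medians and grey bands for the middle 50% and 90% of all genes tested. The medians are 0.70, 0.53, 0.19 and -0.14, and HOXB9 stands at 1.99.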

How the data were processed

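RNA-Seq of 5 NCI-H209 libraries was used. Per the labels and the submitters' processing notes, which name CASAVA 1.8, STAR 2.6.1b, DESeq2 and GRCh38, the authors deposited per library the raw counts of reads per gene, without regard to strand and for each strand. The gene identifiers are those of GENCODE release 29. Counts of the strand expected of the directional library were used here. The authors' table of the comparison gave gene names and, as signal, mean normalised counts, which equalled the counts over median-ratio size factors for 100% of 32793 genes within 1%. Its log2 fold changes, standard errors, test statistics and p-values were not used. CYP26A1 and ALDH1A3 are not in that table and were matched by their GENCODE symbols.

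In R 4.3.3, edgeR 4.0.16 was used to drop genes of low counts (filterByExpr), to scale libraries (TMM) and to run its quasi-likelihood test, two-sided. P-values were adjusted by Benjamini and Hochberg over all 20360 genes that remained. The SE is the absolute log2 fold change over the square root of F, and CPM use TMM library sizes. A common dispersion of 0.0103 was estimated (biological coefficient of variation 10.2%). With 3 against 2 libraries, an exact permutation test of a single value cannot go below p = 0.100. On simulated counts of 19826 genes, the test recovered 91 of 100 genes changed by 2 and 63 of 100 changed by 1 on the log2 scale and called 18 unchanged genes. Only those genes were changed in the simulation, and no library was made to deviate, while 33.4% of genes were called in the data. These rates therefore need not hold for the data. The 14 alternatives were DESeq2 1.42.0, edgeR's exact test, RLE and upper-quartile scaling, minima of 1 count in any and 10 in every library, unstranded counts, expected minus opposite strand, a replicate block and each library left out. The 10 genes and the 9 gene lists were chosen with earlier results of these data known. Named were the 10 genes, RXRA, RXRB, RXRG, ALDH1A2, CYP26C1, STRA6, FABP5, HOXB9, and up to 4 genes higher and 4 lower with the smallest p per list of retinoid, retinoic acid-induced and HOX genes. The results of some genes under this rule are not reported here. No protein sequences were used here.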

Additional observations from a re-analysis of the deposited data

Results flagged for a closer look

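The share of reads that were not mapped was 16.8% in co-cultured 1 and 15.9% in co-cultured 2 and at most 8.48% in the controls. It was flagged because it lies outside the gene counts and stands above the level of the control samples in both co-cultured libraries. Its part in the values of CRABP2, RARG or any other gene was not tested.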

How the results depend on the processing

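CRABP2, NCOA1, NCOA3, STRA6, RDH11, SDR16C5, IRF1, RAI14, NAV2, IGFBP3, HOXB9 and HOXD8 were called under all 14 alternatives. Of 428 values of 31 named genes under the alternatives, 367 kept direction and side of the threshold, 54 lost the call, 7 gained it and 0 reversed. Other scalings moved the median of all genes by at most 0.08 on the log2 scale. Of the genes called, 55.1% were higher, and 43.9% with upper-quartile scaling. The 10 receptors, carriers and enzymes had 4 calls with a minimum of 1 count in any library, where all 10 were tested. After subtracting the opposite strand 1 of the 6 tested was called. The partners had 3 calls with the replicate block. Uptake and carriage had 1 call with DESeq2 and 1 after subtracting the opposite strand, and synthesis and breakdown had 0 with DESeq2, unstranded counts or the replicate block, against 1 by edgeR. HOX groups 1 to 5 had 1 with DESeq2, a minimum of 10 counts or the replicate block. Of all genes, 20.5% were called with a minimum of 1 count in any library and 32.5% after subtracting the opposite strand. The shares were 29.4% with DESeq2, 28.1% with unstranded counts, 23.7% with the replicate block and 37.2% with a minimum of 10 counts. Genes past an absolute log2 fold change of 1 and an unadjusted p of 0.05 numbered 2128, and 1280 with a minimum of 10 counts in every library.

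Leaving out 1 library at a time gave 2734 to 9897 called genes (6809 with all), 1884 to 2476 past the fold and unadjusted p, and calls of 1 to 6 for the 10 genes, 2 to 6 for partners, 1 to 3 for uptake, 2 to 7 for oxidoreductases, 0 to 1 for synthesis and breakdown, 9 to 12 for induced genes, 0 to 4 for HOX groups 1 to 5 and 2 to 9 for HOX groups 6 to 13. Deviations from group means correlated by -0.114 and -0.067 between same-numbered libraries. The deviations of the 2 co-cultured libraries are mirror images of each other, so that this check cannot decide on pairing. The labels name no pairing, and the numbers were not taken to pair the libraries. The replicate block gave 4824 called genes, 2040 past the fold and unadjusted p, and 2 of the 10 genes. Depth limits CYP26A1, ALDH1A3, CRABP1 and RARB. The cause of these changes was not tested.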
